A study of Mus musculus with 12 samples.

Results

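Genes of basophils and mast cells were followed through 12 single-cell libraries. They were Mcpt8, Prss34, Cpa3, Gata2, Cd63, Tpsb2 and Ms4a2, all 7 present in the deposited matrix of 18601 genes. They were selected on earlier results of these data, mainly their levels in KO against control spleen libraries and, for Tpsb2, in KO against control colon libraries, so those contrasts are described here without a test. Cells carrying at least 2 of the 7 genes were then counted. There were 23 such cells among 32763 (0.0702%, exact Clopper-Pearson 95% interval 0.0445 to 0.105%).

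The mice received Th1 cells that lacked the interleukin-23 receptor (KO, Il23r eGFP/eGFP) or kept a working copy of it (control, Il23r wt/eGFP), so both donor genotypes carry the eGFP reporter allele. CD4 T cells, as the labels call them, were taken from spleen, colon lamina propria (the connective tissue under the epithelium), small intestine lamina propria and colon epithelium. Spleen and colon lamina propria had 2 libraries of each genotype, and the other sites had 1 of each, both from replicate 2. The sources used here give no host strain, age, cell sort or pooling of animals. Nothing says whether replicates came from separate animals, so p-values measure only the spread between these libraries.

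Libraries held 981 to 4079 cells and 3107528 to 14292028 unique molecular identifiers (UMIs, each standing for 1 captured transcript), with a median of 1863 to 5711 UMIs per cell. A UMI of Cd3d, Cd3e or Cd3g, the chains of the T cell receptor complex, was found in 87.9 to 99.6% of the cells of 11 libraries and in 66.8% of those of the small intestine KO library. Il23r itself reached 0.298 to 34.1 CPM (UMIs per 1000000 UMIs of the library) in the 6 KO libraries and 0.60 to 8.48 CPM in the 6 control libraries. The sources do not say which part of the transcript the eGFP allele leaves, so these 3′ counts do not check the genotype labels. A barcode sequence occurred in 2 libraries 668 times and in 3 libraries 9 times, which touches 1363 cells and 2 of the 23.

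Basophils and mast cells are granulocytes that carry the high-affinity IgE receptor and release histamine, proteases and cytokines when that receptor is cross-linked. Basophils circulate and reach the spleen through the blood, whereas mast cells settle in tissues and depend on the receptor Kit. In the mouse, mast cells of the mucosa are known for the chymases Mcpt1 and Mcpt2, and those of connective tissue for the chymases Mcpt4 and Cma1 and for tryptases. Neither cell type is a CD4 T cell.

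The 7 genes fall into 4 roles. Mcpt8 (ENSMUSG00000022157, chr14:56082166-56085273 on mm10) and Prss34 (chr17:25298394-25300165) encode granule serine proteases known from mouse basophils. Tpsb2 (chr17:25366305-25369098) encodes a tryptase and Cpa3 (chr3:20215620-20242181) the carboxypeptidase of the granules. Ms4a2 (chr19:11615523-11623719) encodes the beta chain of the IgE receptor and Gata2 (chr6:88193891-88207032) the transcription factor that both lineages need. Cd63 (chr10:128900989-128912822) encodes a tetraspanin of granule and lysosome membranes that many cell types make.

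Promoter sequences are shown for 4 of the genes found together in the spleen cells described further on, because Gata2, itself 1 of the 7, is known to bind GATA motifs. Each runs from 250 bases before to 50 bases after the RefSeq transcript start, 5′ to 3′ on the gene's own strand (RefSeq, GRCm38.p6). They lie at chr14:56085148-56085447 (minus strand, Mcpt8), chr17:25298144-25298443 (plus strand, Prss34), chr3:20242132-20242431 (minus strand, Cpa3) and chr19:11623670-11623969 (minus strand, Ms4a2). Capitals mark GATA motifs, searched on both strands as the word AGATAA or AGATAG and as the word TGATAA or TGATAG.
Mcpt8: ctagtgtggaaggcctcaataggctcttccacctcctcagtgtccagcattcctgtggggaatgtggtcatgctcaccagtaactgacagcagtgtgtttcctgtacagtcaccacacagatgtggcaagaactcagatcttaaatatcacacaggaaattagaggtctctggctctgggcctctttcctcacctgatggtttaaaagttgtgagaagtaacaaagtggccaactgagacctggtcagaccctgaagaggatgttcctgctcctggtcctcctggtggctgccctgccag
Prss34: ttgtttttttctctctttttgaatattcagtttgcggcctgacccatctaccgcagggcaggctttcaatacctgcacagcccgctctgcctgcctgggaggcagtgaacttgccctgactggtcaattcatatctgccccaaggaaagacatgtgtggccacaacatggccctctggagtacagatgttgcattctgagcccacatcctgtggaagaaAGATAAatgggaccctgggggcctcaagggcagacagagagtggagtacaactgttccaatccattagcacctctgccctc
Cpa3: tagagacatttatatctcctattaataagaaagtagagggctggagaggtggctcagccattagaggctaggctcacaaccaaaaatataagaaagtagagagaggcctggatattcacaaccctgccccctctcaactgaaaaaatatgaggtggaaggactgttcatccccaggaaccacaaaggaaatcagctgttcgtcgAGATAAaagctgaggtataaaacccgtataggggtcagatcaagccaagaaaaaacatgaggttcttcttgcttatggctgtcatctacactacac
Ms4a2: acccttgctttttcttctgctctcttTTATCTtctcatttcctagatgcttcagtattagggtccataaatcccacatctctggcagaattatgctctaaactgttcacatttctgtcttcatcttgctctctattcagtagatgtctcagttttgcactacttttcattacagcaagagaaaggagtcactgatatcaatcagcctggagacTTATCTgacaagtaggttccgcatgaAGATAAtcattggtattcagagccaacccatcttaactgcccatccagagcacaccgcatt

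The word AGATAA stood once in the Prss34 promoter, from base -31, and once in that of Cpa3, from base -46, where base -1 is the last before the start. Ms4a2 held it 3 times, from bases -224 and -37 on the other strand and from base -11 on its own, with no overlap between them. None of the 4 words stood in these windows of Mcpt8, Gata2 or Cd63. The table held 6 of the 7 genes, 3 of them with a word, and 29.8% of all 32851 promoters of this length hold 1 or more. A match is a description of letters and shows no binding.

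Mcpt8 and Prss34, the basophil proteases, were at their highest in the 2 spleen KO libraries. Mcpt8 had 30.2 and 45.9 CPM in spleen KO replicates 1 and 2, against 0.606 and 0 CPM in the spleen control replicates. Prss34 had 18.8 and 42.7 CPM in the spleen KO libraries, against 0 and 0 CPM in the spleen controls, which is at least 222-fold higher when the controls are set at 3 UMIs over the group. Both genes were chosen on these spleen values, so the gap between the groups is only a description. In the 8 gut libraries Mcpt8 was found only in colon lamina propria KO replicate 2, with 2 UMIs, and Prss34 only in the same library, with 1 UMI. With no UMI, the floor of 3 UMIs stood at 0.210 to 0.965 CPM in the other gut libraries.

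Cpa3, the granule carboxypeptidase, was spread over both sites. It had 5.59 and 5.66 CPM in the spleen KO libraries, against 0 and 0.0936 CPM in the spleen controls. In colon lamina propria it had 0.420 and 2.68 CPM in the KO libraries, against 4.0 and 0.429 CPM in the controls, so the groups overlapped. The colon epithelium KO library had 2.59 CPM, against 0 CPM in its control, at least 10.0-fold higher over the floor. All 26 of its UMIs lay in 3 cells. In colon lamina propria 1 cell held 27 of the 30 UMIs of control replicate 1, and 1 cell held 21 of the 24 of KO replicate 2.

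Ms4a2 and Gata2 were low outside the spleen KO libraries. Ms4a2 had 10.5 and 0.734 CPM in the spleen KO libraries, against 0.242 and 0 CPM in the spleen controls. Gata2 had 8.63 and 1.62 CPM in the spleen KO libraries, against 0.121 and 0.0936 CPM in the spleen controls. For both genes replicate 1 was the high KO library, and replicate 2 lay far below it with separate exact Poisson intervals (6.48 to 11.3 CPM and 1.01 to 2.45 CPM for Gata2). In the gut Ms4a2 stayed at or under 0.534 CPM and Gata2 at or under 0.40 CPM.

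Tpsb2, the tryptase, ran the other way. It had 0 and 0 CPM in the colon lamina propria KO libraries, against 1.73 and 2.40 CPM in the colon controls, and 0 CPM in the remaining 8 libraries. The KO group was at least 16.6-fold lower with 3 UMIs set for it. The control value rests on 41 UMIs, of which 39 lay in 2 cells.

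Cd63 was the most abundant of the 7 genes, with 1462 of 3410 UMIs. It had 29.4 and 5.95 CPM in the spleen KO libraries, against 1.45 and 1.03 CPM in the spleen controls. In colon lamina propria it had 16.1 and 16.3 CPM in the KO libraries, against 19.5 and 20.6 CPM in the controls. The small intestine libraries had 4.18 CPM for KO and 3.87 CPM for control. The order from the highest ran from colon epithelium KO (36.2 CPM) and spleen KO replicate 1 through the 4 colon lamina propria libraries to spleen KO replicate 2, and the colon epithelium control was lowest with 0.858 CPM. The first 2 in that order had overlapping Poisson intervals (32.6 to 40.1 and 25.3 to 34.0 CPM), as had the 4 colon lamina propria libraries.

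**Figure D1:**
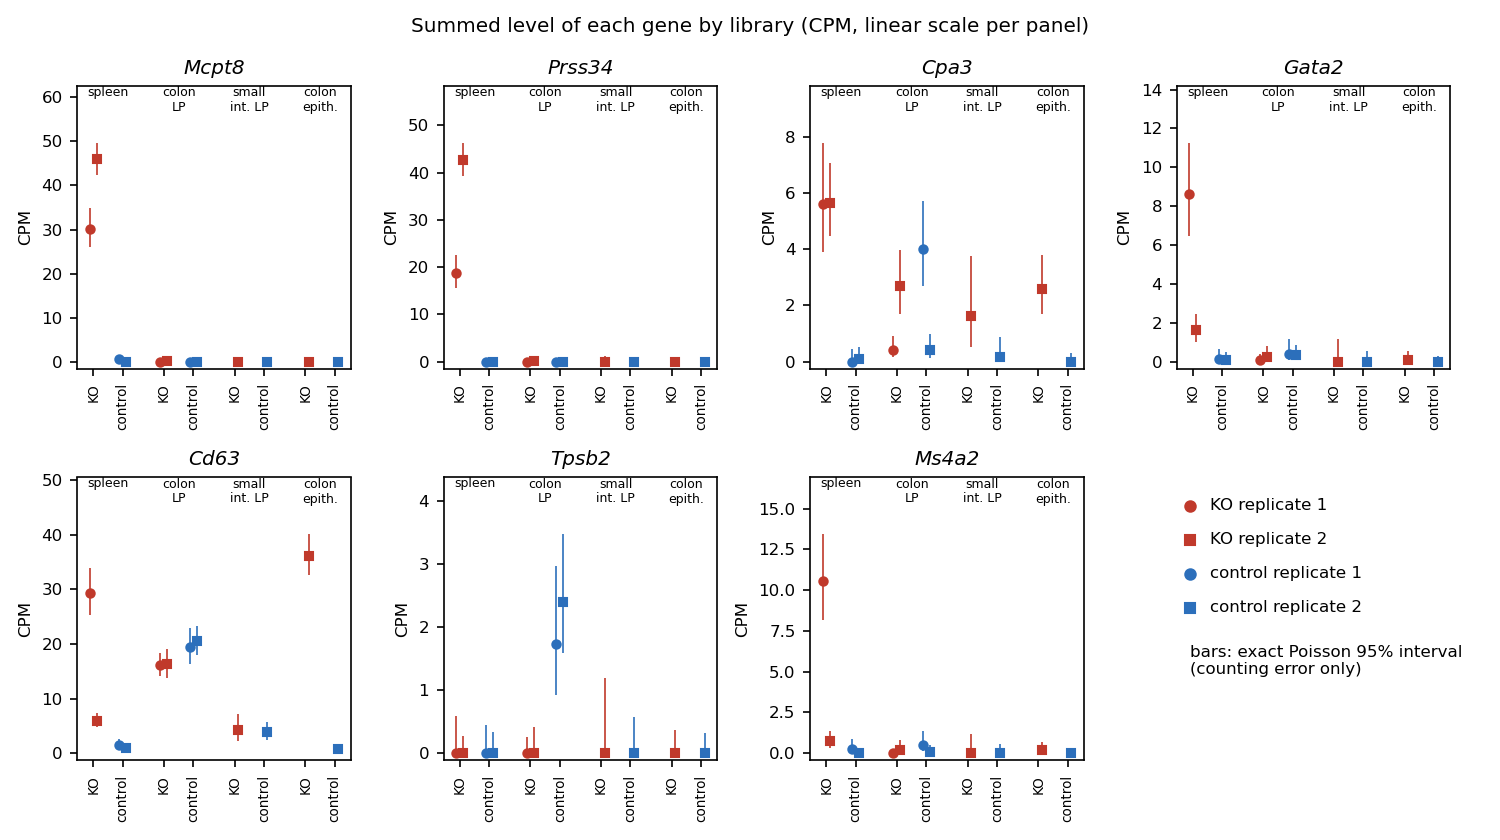
Level of each of the 7 genes in CPM (linear axis, own scale per panel) in every library, with exact Poisson 95% intervals. Mcpt8 and Prss34 stand at 18.8 CPM or more in the 2 spleen KO libraries and near 0 elsewhere, Tpsb2 appears only in the 2 colon lamina propria controls, and Cd63 is present in every library.

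The spleen levels came from very few cells. Spleen KO replicate 1 held 11 cells with 2 or more of the genes among 981 (1.12%, interval 0.561 to 2.0%), and spleen KO replicate 2 held 5 among 3771 (0.133%, interval 0.0431 to 0.309%). Spleen control replicate 1 held 1 among 1391 (0.0719%), and control replicate 2 held 0 among 4079, for which the floor of 3 cells is a share of 0.0735% and the exact interval reaches 0.0904%. Intervals and floors cover counting error only. The 2 KO libraries differed from each other with separate intervals, and KO replicate 2 overlapped control replicate 1.

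Gut libraries held 6 such cells. Colon lamina propria had 0 and 1 in the KO libraries, against 1 and 1 in the controls. Colon epithelium had 3 of 3452 cells in the KO library (0.0869%), against 0 of 3711 in the control. Small intestine had none in either library. Summed over sites, KO libraries held 20 of the 23 and control libraries 3, and 11 of the 20 came from spleen KO replicate 1, the smallest library by cells.

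The cells past the threshold of 2 genes held most UMIs of 6 of the genes, but not of Cd63. Per cell the 2 sides met. Ms4a2 had 1 UMI in some of the 23 cells and at most 1 in any other cell. Gata2 had 2 UMIs in some of the 23 and at most 2 in any other cell. Of all cells, 32328 had none of the 7 genes, 412 had 1, 2 had exactly 2, and 21 had 3 or more. Just outside the threshold, 335 of the 412 cells had Cd63 and 77 had another of the genes, never with more than 3 UMIs of it. Just inside, the 2 cells with exactly 2 genes carried 3 and 25 UMIs of them. The 23 cells held 2218 of 3410 UMIs of the 7 genes (65.0%), and 1866 of 1948 (95.8%) when Cd63 was set aside, while holding 0.0783% of all UMIs. By gene their share was 97.6% for Mcpt8, 98.3% for Prss34, 95.1% for Tpsb2, 89.7% for Ms4a2, 87.6% for Cpa3, 85.4% for Gata2 and 24.1% for Cd63. These shares follow in part from the rule, which picks cells by these genes.

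**Figure D2:**
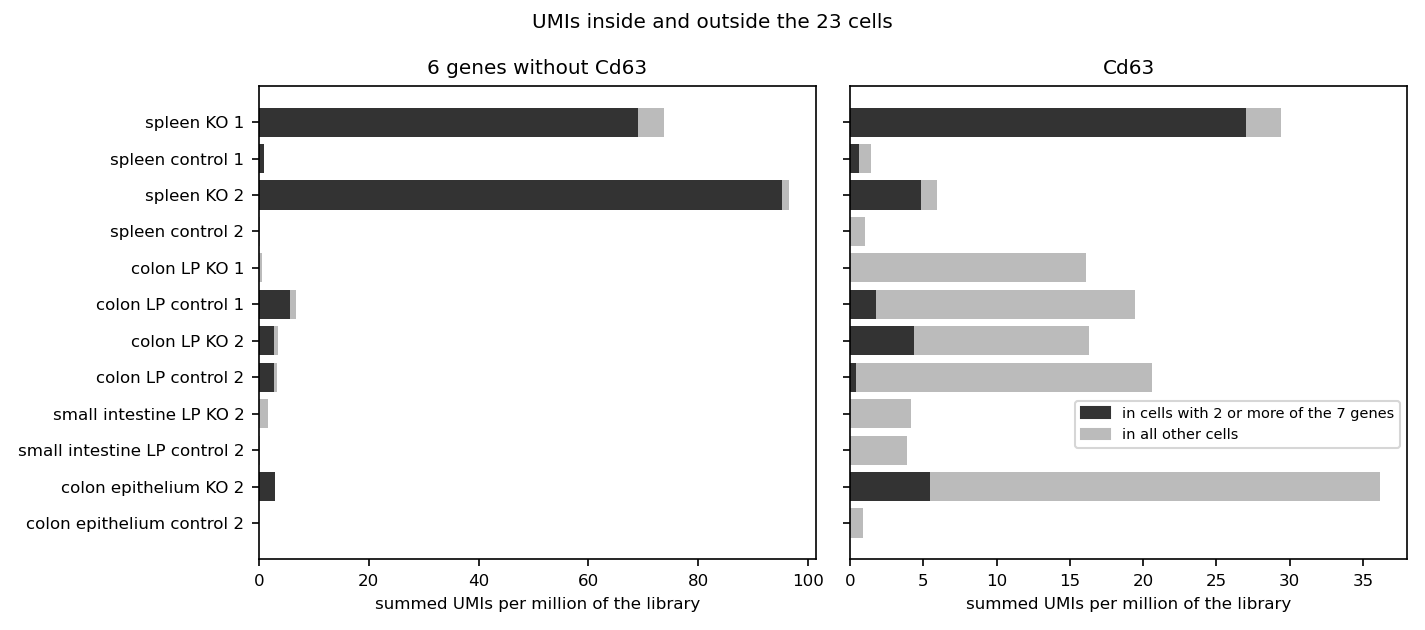
Level in CPM of each library (linear axis) inside the 23 cells (dark) and in all other cells (light), for the 6 genes without Cd63 and for Cd63. For the 6 genes nearly all of the bar is dark in the spleen KO libraries, whereas most Cd63 in the gut libraries lies in other cells.

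Within the 17 spleen cells, 16 carried Mcpt8, 16 Gata2, 16 Ms4a2, 17 Cd63, 12 Cpa3 and 6 Prss34, and none carried Tpsb2. The 6 Prss34 cells held 16 to 327 UMIs of Mcpt8 each, and the other 11 spleen cells held 0 to 16. Fcer1a, the alpha chain of the IgE receptor, was in 16 of the 17. Cyp11a1, a steroid-forming enzyme, Hdc, which makes histamine, Cd200r3, an activating receptor of basophils, and Alox5ap, needed for leukotriene synthesis, were in 17 of 17, as was the chemokine Ccl6 with 7 to 205 UMIs a cell. The mast cell chymases Mcpt1, Mcpt2, Mcpt4 and Cma1, and Kit, had 0 UMIs in all 17.

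The 6 gut cells differed in the proteases they carried. Mcpt8 and Prss34 had 0 UMIs in all 6, whereas Cpa3 had 3 to 27 UMIs and Cd63 had 5 to 39 UMIs in each. Mcpt1 was in 5 of the 6 cells with 841 UMIs in all, and Mcpt2 in the same number of cells with 349. Tpsb2 was in both control colon cells, with 12 and 27 UMIs, and in none of the 4 KO gut cells. Those 2 control cells also held Mcpt4, with 42 and 5 UMIs, and Cma1, with 3 and 13. Kit had 1 UMI in each of 4 gut cells, and Ccl6, Ccl9 and Csrp3 had 0 in all 6. No cell carried both Mcpt8 and Tpsb2.

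The 2 cells of spleen KO replicate 2 with the most UMIs of the 7 genes stood apart from the other 15 spleen cells. They carried 716 and 584 such UMIs, 15.6% and 13.2% of all UMIs in those cells, where the other 21 of the 23 cells carried 3 to 152. Mcpt8 had 327 and 269 UMIs and Prss34 had 319 and 255 in this pair. Ctsg, the protease cathepsin G, had 50 UMIs in the pair and 7 in the other 15, while Ccl6 had 15 in the pair and 1769 in the other 15. The chemokine Ccl3 had 1 UMI in the pair and 280 in the other 15. The pair held 95.4% of the Mcpt8 UMIs of its library, 98.8% of the Prss34 UMIs and 90.9% of the Cpa3 UMIs. Without them, an alternative chosen after seeing the data, that library had 2.13 CPM of Mcpt8 and 0.514 CPM of Prss34, so the order of the 2 spleen KO libraries turned round for both genes. In spleen KO replicate 1 the 2 highest cells held 49.7% of the Mcpt8 UMIs and 68.6% of the Prss34 UMIs. Mcpt8 then still lay above the spleen controls at 0.606 and 0 CPM.

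**Figure D3:**
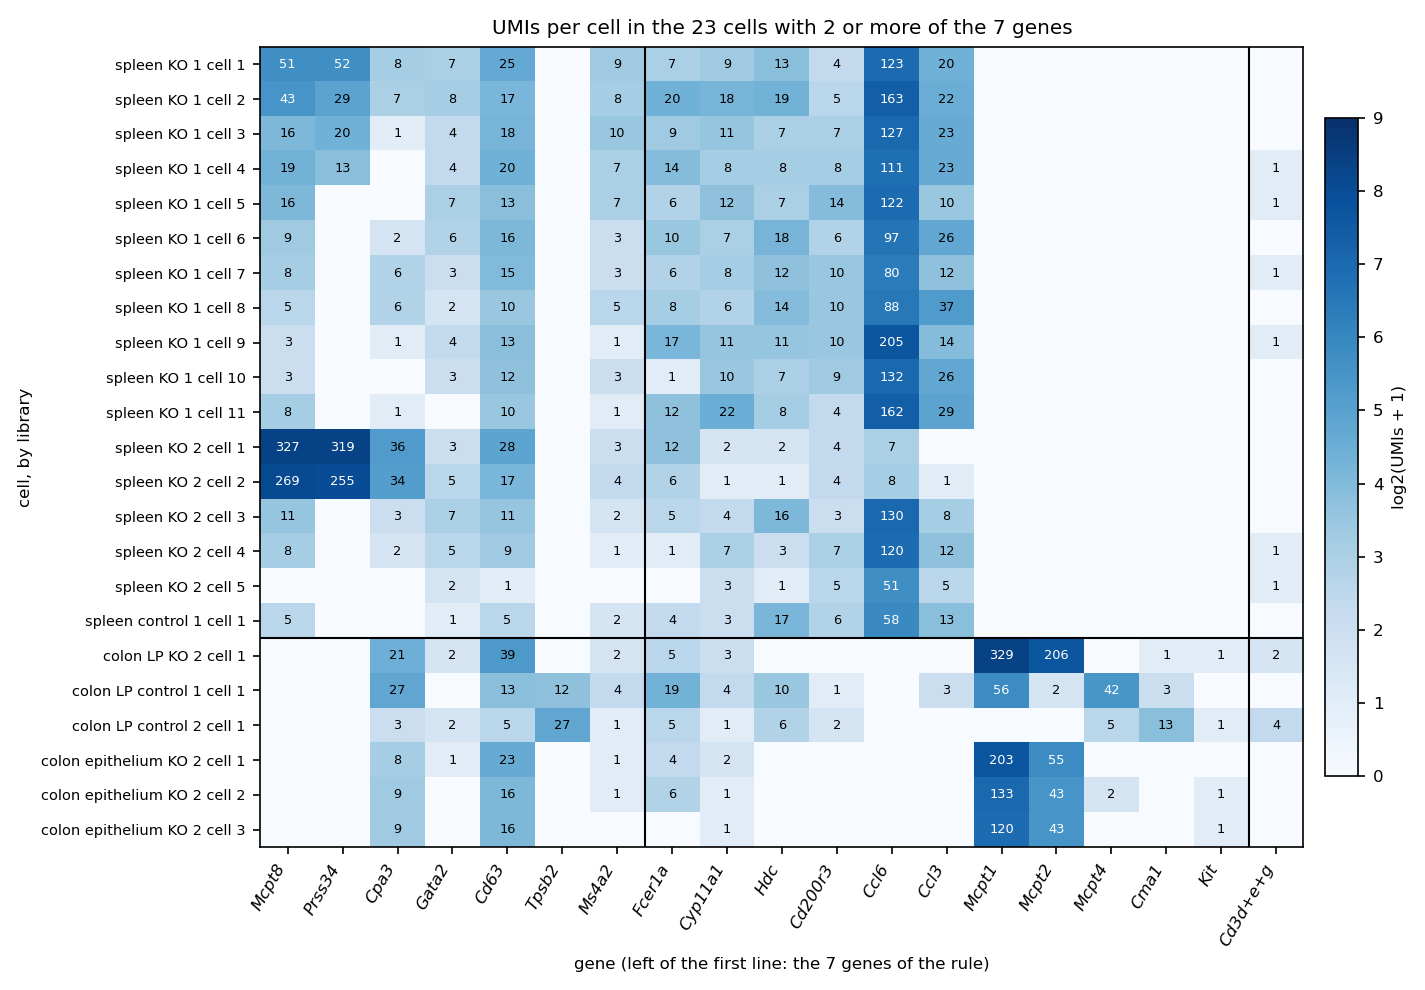
UMIs of the 7 genes (left of the first line), of 11 further genes and of Cd3d, Cd3e and Cd3g together in each of the 23 cells, coloured by log2(UMIs + 1). The 17 spleen cells above the line carry Ccl6 and no Mcpt1, the 6 gut cells below it carry no Mcpt8, and 2 cells of spleen KO replicate 2 hold 255 to 327 UMIs each of Mcpt8 and Prss34.

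The defining markers of the labelled cell type were absent from most of the 23 cells. A UMI of Cd3d, Cd3e or Cd3g was in 8 of the 23 cells (34.8%), against 95.6% of all other cells. Pooled over libraries the 23 were deeper, with a median of 4075 UMIs against 2807. Only 7 of the 23 lay above the median depth of their own library. After thinning each cell to 1000 UMIs, which left out 784 cells, none of them among the 23, the shares were 13.0% and 91.7%. Within spleen KO replicate 1 alone the thinned shares were 9.09% and 75.5%. The summed level of the 3 genes was 136 CPM in the 23 cells, against 3333 CPM in the others. The list of 10 measured T cell genes stood at 363 CPM in the 23 cells, against 6721 CPM in the others.

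The list of further basophil and mast cell genes, with 33 of its 34 genes in the matrix, stood at 32526 CPM in the 23 cells, against 1759 CPM in all others, and 28 of the 33 had a UMI in them. Srgn, a granule proteoglycan that T cells also make, gave most of the level outside, with 1523 CPM. Inside, Mcpt1 gave 841 and Mcpt2 349 of the 2867 UMIs of the list, all of them in gut cells. The neutrophil list stood at 681 CPM in the 23 cells, against 100.3 CPM in the others, and rested on the chemokine receptor Cxcr2, with 38 UMIs in 13 of the 23 cells, and the peroxidase Mpo, with 20 UMIs in 2 of them. Retnlg and Ngp had 1 UMI each, and the other 6 genes of that list, S100a8 and S100a9 among them, had 0. The eosinophil list stood at 56.7 CPM against 1.55 CPM, from 3 UMIs of Ccr3 and 2 of Siglecf, with Epx, Prg2 and 4 more genes at 0. The macrophage and monocyte list stood at 352 CPM against 353 CPM, with 25 UMIs of Ccr2 in 10 of the 23 cells, 4 of Adgre1 in 4 cells, 1 each of Lyz2 and Apoe, and 6 genes at 0, C1qa, C1qb, C1qc, Csf1r and Cd68 among them. The megakaryocyte and platelet list, at 261 CPM against 1.148 CPM, rested on Itga2b alone, and the haematopoietic progenitor list stood at 556 CPM against 26.3 CPM. The B cell list stood at 22.7 CPM against 5.83 CPM, the dendritic cell list at 216 against 978 CPM, the NK cell and ILC list at 250 against 474 CPM, the erythroid list at 125 against 1224 CPM, the epithelial list at 193 against 301 CPM and the stromal list at 125 against 64.5 CPM.

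**Figure D4:**
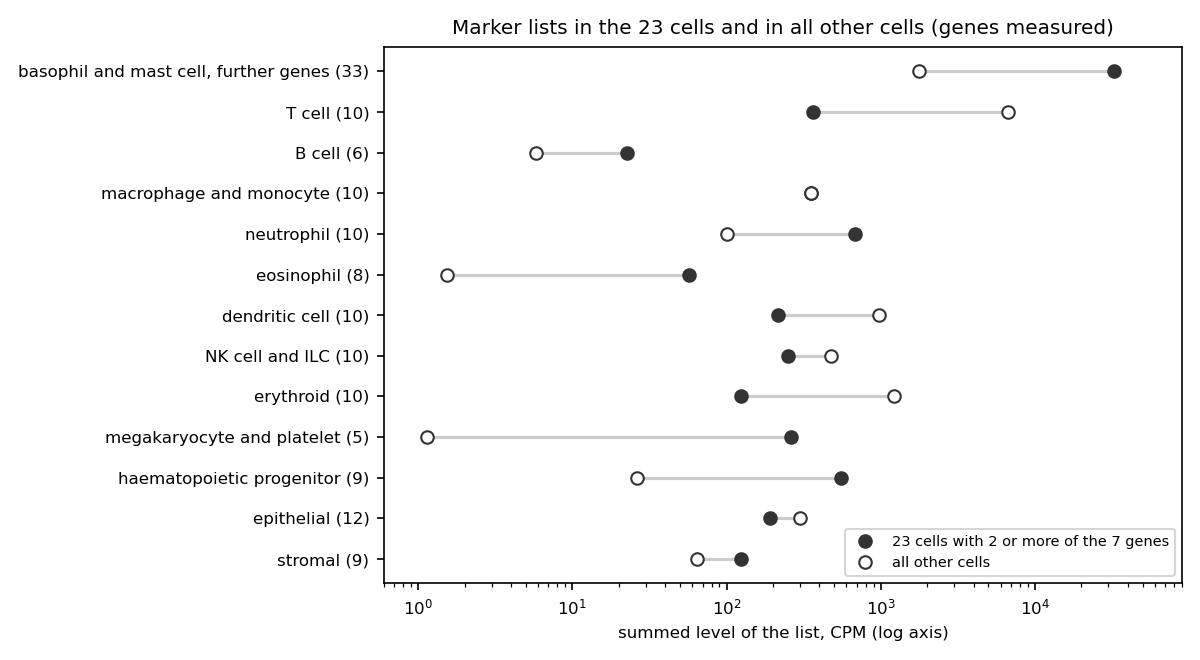
Summed level in CPM (log axis) of each marker list, with the number of its genes measured, in the 23 cells (filled) and in all other cells (open). The further basophil and mast cell genes stand at 32526 CPM against 1759, and the T cell genes at 363 against 6721.

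With the 7 genes themselves left out of the ranking, the 15 genes with the highest ratio to the other cells, among those with 50 or more UMIs in the 23 cells, were Mcpt1, Ccl6, Mcpt2, Fcer1a, Ccl9, Cyp11a1, Cd200r3, Csrp3, Cyp4f18, Ctsg, Emilin2, Alox5ap, Hdc, Fcgr3 and Tyrobp. The ranking carries no test, since the rule chose the cells. Cyp11a1 and Tyrobp, the adaptor of activating receptors, were in 23 of 23. Fcer1a had 177 of its 184 UMIs in the 23 cells. Without spleen KO replicate 1, and again without the 7 genes, the first in the ranking were Mcpt1, Mcpt2, Ccl6, Fcer1a and Ctsg, in that order.

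Outside the 23 cells the 6 genes apart from Cd63 left 82 UMIs in 77 cells. Mcpt8 had 1 UMI in each of 20 cells, of which 8 were in spleen KO replicate 1, 10 in spleen KO replicate 2 and 2 in colon lamina propria KO replicate 2. Those are 0.825%, 0.266% and 0.0546% of the other cells of these libraries, and all 20 had a CD3 UMI, with a median of 4270 UMIs. Whether these single UMIs came from the cells themselves was not tested. None of the 77 cells carried the barcode of 1 of the 23. Only 2 of all 32740 cells outside the 23 carried such a barcode, so its absence among the 77 tells little about their source.

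Outside the 23 cells Cd63 had 1110 UMIs in 335 cells, and 32 cells with 10 or more held 512 of them. A CD3 UMI was in 64.8% of the 335, against 95.9% of the remaining cells outside the 23. The epithelial list stood at 15146 CPM in the 335 cells, against 46.5 CPM in the rest, the stromal list at 1546 against 39.2 CPM, and the macrophage and monocyte list at 909 against 343 CPM. In colon epithelium KO there were 95 such cells, 68 of them with a UMI of the epithelial list.

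The first tested question was whether the genotype of the transferred cells changed the genes in colon lamina propria. Cpa3 (log2 fold change -0.61 ± 1.14 SE) and Cd63 (-0.28 ± 0.63) did not pass, each with an edgeR quasi-likelihood adjusted p of 1. Gata2, with 1 and 2 UMIs in the KO libraries and 3 and 4 in the controls, was kept by the expression filter only through the spleen KO libraries that had led to its choice, so no test is read for it. Mcpt8 and Prss34 were at or under the floor in both groups and get no fold, and Ms4a2 was not kept by the expression filter. Tpsb2 was chosen on this contrast and is described above. A test is thus read only for Cpa3 and Cd63, neither of them called, with 0.00% of all 11636 genes called. Over all genes 103 had an unadjusted p under 0.05, and DESeq2 called 0. Of the 24 further basophil and mast cell genes kept, 0 were called, with a median log2 fold change of -0.0039, against -0.0076 over all genes. Among spleen and colon lamina propria libraries, Cyp11a1, Cd200r3 and Csf2rb2 passed 1 CPM only in the spleen KO libraries. Fcer1a did so there and in colon control replicate 1 alone. No test is read for these genes. The sign of Cpa3 rested on 1 library, with 1.87 without colon control replicate 1.

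In the spleen the same fit described the contrast that had chosen the genes, so no test is read from it. By edgeR 0.00% of 11636 genes were called, and 120 had an unadjusted p under 0.05. DESeq2 called 2 genes and edgeR with the replicate block called 1. All of these were among the 7 genes, which were chosen on this contrast, so the calls are no support for them. The adjusted p of every one of the 6 genes kept was 1 by edgeR without the block. With cells carrying 2 or more of the genes left out, Cd63 had 2.42 and 1.10 CPM in the KO libraries, against 0.848 and 1.03 CPM in the controls. Mcpt8 had 1.29 and 0.735 CPM in the KO libraries under that setting, against 0 and 0 CPM in the controls. Lists of other cell types also differed between these libraries. The neutrophil list stood at 43.3 and 646 CPM in the KO libraries, against 1.21 and 205 CPM in the controls, with 4 and 0 of its 10 genes at 0 in the KO libraries and 7 and 3 in the controls. The erythroid list stood at 2171 and 5633 CPM in the KO libraries, against 1099 and 10.3 CPM in the controls, with none of 10 at 0 in the KO libraries. Their part in the levels of the 7 genes was not tested.

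Across tissues, colon lamina propria was set against spleen as the mean of both genotypes. Cd63 had 16.2 ± 0.134 CPM in colon KO and 20.04 ± 0.797 CPM in colon control libraries (SD, n = 2 each). Spleen KO libraries had 17.7 ± 16.6 CPM and spleen control libraries 1.24 ± 0.300 CPM. Its colon mean thus lay above that of spleen in the controls but not in KO. The log2 fold change over both genotypes was 2.19 ± 0.50 SE, and 1.84 to 3.0 when leaving out 1 library. Spleen values had led to the choice of Cd63, so this is a description. Within replicate 1 the spleen KO library, at 29.4 CPM, lay above both colon libraries, and within replicate 2 both colon libraries lay above both spleen libraries. With the cells carrying 2 or more of the genes left out, colon had 16.1 and 11.9 CPM in KO and 17.7 and 20.2 CPM in control libraries, against 2.42 and 1.10 CPM in spleen KO and 0.848 and 1.03 CPM in spleen control libraries. All 23 cells carry Cd63 and 17 of them are spleen cells, so leaving them out lowers spleen Cd63 by construction, and no test is read from these values. The stromal list stood at 89.1 to 131 CPM in colon, with none of its 9 genes at 0. In spleen that list stood at 27.3 to 38.8 CPM, with 5 or 6 genes at 0. The epithelial list stood at 14.3 to 262 CPM in colon with 0 to 4 of 12 genes at 0, against 4.19 to 11.8 CPM in spleen with 6 or 7 at 0. Their part in the Cd63 difference was not tested.

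The spleen libraries that had led to the choice of the genes enter this contrast, so no test is read for Cd63 or Cpa3. Cpa3 had a log2 fold change of 1.83 ± 1.05 SE. Mcpt8 and Gata2 were kept by the filter through the spleen KO libraries that had led to their choice, so their values are a description. Gata2 had a log2 fold change of -1.49 ± 0.94 and Mcpt8 one of -6.37 ± 1.38. No test is read for either gene, and the Mcpt8 value ran from -7.97 to -4.16 when leaving out 1 library. Prss34 and Tpsb2 could not be estimated with all libraries of 2 groups or more at 0. A test is thus read for none of the 6 genes kept. Over all 11636 genes 14.6% were called higher, 10.4% lower and 25.0% in either direction.

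Of 24 further basophil and mast cell genes kept between the tissues, 5 were called, a share no larger than the 25.0% over all genes. Cyp11a1, Cd200r3, Csf2rb2 and Fcer1a, kept through the spleen KO libraries, were not among the 5, and no test is read for them. Higher in colon were 3 of them (14.6% over all genes), namely Srgn (1.59 ± 0.24 SE, edgeR adjusted p 0.00447), the prostaglandin D2 synthase Hpgds (1.44 ± 0.39, 0.0338) and the type 2 cytokine Il13 (edgeR adjusted p 0.0163). Il13 had 3.64 and 3.46 CPM in colon KO and 14.1 and 1.2 CPM in colon control libraries, against 0.160 and 0 CPM in the KO spleens and 0 CPM in both control spleens, so no fold is given. The cytokine Osm (-1.76 ± 0.21, edgeR adjusted p 0.00191) and the transcription factor Cebpa (-1.64 ± 0.37, 0.0185) were the 2 lower in colon (10.4% over all genes). The median was 0.02, against -0.03 over all genes. Of their UMIs, the 23 cells held 0 of 260 for Il13, 193 of 171386 for Srgn, 4 of 696 for Hpgds, 33 of 1469 for Osm and 29 of 182 for Cebpa.

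Over the 8 gut libraries, which include the colon lamina propria libraries of the comparison above, the genotype was tested with tissue as a further term. Cpa3 (log2 fold change 1.14 ± 1.43 SE, edgeR adjusted p 0.907) and Cd63 (0.81 ± 0.98, edgeR adjusted p 0.906) did not pass. Tpsb2 was also kept and is described above, while Mcpt8, Prss34, Gata2 and Ms4a2 were not kept. A test is read only for Cpa3 and Cd63, neither of them called. Over all 11609 genes there were 0 calls (0.00%), 575 at an unadjusted p under 0.05 and 10 calls by DESeq2. Without either colon epithelium library Cd63 was at -0.20. Of 21 further basophil and mast cell genes tested, 0 were called, with a median of 0.41, against -0.0024 over all genes.

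Colon epithelium and small intestine had 1 library per genotype, so their ratios have no replicate check. Cd63 had 36.2 CPM in colon epithelium KO, against 0.858 CPM in its control, a ratio of 42.2 (exact conditional 95% interval 22.7 to 88.7), and 35.8 without the cells carrying 2 or more of the genes. The epithelial list stood at 2271 CPM in the KO library, against 82.5 CPM in the control, with none of 12 genes at 0 in either, and its part in this ratio was not tested. In small intestine the Cd63 ratio was 1.08 (0.508 to 2.19). Cpa3 had 5 UMIs in small intestine KO and 1 in its control, a ratio of 10.4 (1.16 to 492). These intervals treat each UMI as independent. The 5 UMIs of Cpa3 lay in 3 cells, 1 of which held 3, so its interval is too narrow to set the ratio apart from 1.

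The 10 genes whose level over the 12 libraries was most like the summed level of the 7 genes, by Pearson's r of log2(CPM + 1), were Nxt2 (0.89), Cd24a, Osbpl1a, Zak, Smim1, Zbtb6, Ppp3r1, Fcer1a (0.73), Sept11 and Nenf. The sum itself was 103 CPM in both spleen KO libraries, against 2.42 and 1.22 CPM in the spleen controls. Of the 10 genes, Fcer1a had 96.2% of its UMIs in the 23 cells, and the other 9 had 0 to 0.599% there. These likenesses are a description over 12 libraries that differ in depth and batch, and 11396 genes were compared.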

How the data were processed

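The deposited values were UMI counts. Per the labels' protocols, cells were loaded on a 10x Chromium 3′ kit, version 2. Cell Ranger 2.0.2 and mm10 are listed, with no role, per the submitters' processing notes. No source used here tells how cells were sorted or filtered or how doublets were treated, so no cell was removed and no doublet caller was run. Libraries came from the library names in the cell table, and 2 of its columns, genotype and tissue, were not used. In all 32763 cells the batch given there is the replicate number, so the numbers mark a shared batch. Same-numbered libraries also deviated together (correlations 0.276 to 0.599 over 6 pairs of groups and 11636 genes), and replicate 1 holds spleen and colon lamina propria only.

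UMIs were summed per library and divided by the library total (CPM). CPM values carry exact Poisson intervals and shares exact Clopper-Pearson intervals, all at 95%. The floor for a count of 0 was 3 UMIs. Sums were compared with edgeR 4.0.16 (filterByExpr, TMM factors 0.858 to 1.149, robust quasi-likelihood test, Benjamini-Hochberg adjustment over all genes, threshold 0.05), with the 4 groups of 2 libraries fitted together. Standard errors were derived from the F statistic. DESeq2 1.42.0, DESeq2 size factors, no filter, a replicate block, cells with 2 or more of the genes left out and each library left out were alternatives. The count test was tested on simulated data. Of changes of 1 log2 unit it recovered 4.55% for genotype in spleen, 4.76% in colon lamina propria, 35.2% over the gut and 25.2% between tissues. Of changes of 2 log2 units it recovered 67.8%, 61.1%, 85.3% and 88.2%. A lack of calls for genotype thus does not show a lack of change. Gene positions come from GENCODE vM21 and promoters from RefSeq.

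The 7 genes and all marker lists were chosen with earlier results of these data known. Genes named are the 7, genes of the further list with 10 or more UMIs, the 15 others with the highest CPM ratio (1 CPM added, 50 or more UMIs in the cells), the 10 most alike over libraries (50 or more UMIs) and checks; Ccl3 and list genes named for being at 0 or alone were picked after their values were seen. Predicted genes, Rik clones and receptor segments are not named.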

Additional observations from a re-analysis of the deposited data

Results flagged for a closer look

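Cd63, Gata2 and the share of cells with 2 or more of the 7 genes were higher in KO than in control in both spleen replicates and lower in both colon lamina propria replicates. The mean KO minus control difference in spleen exceeded that in colon lamina propria by 20.3 CPM for Cd63, by 5.24 CPM for Gata2 and by 0.626 percentage points for the share of cells. The difference between the tissues was not tested, because the spleen contrast had led to the choice of the genes. The colon part is small. Gata2 had 0.0700 and 0.223 CPM in the colon KO libraries, against 0.40 and 0.343 CPM in the controls, and each colon library held 0 or 1 of the cells. In colon replicate 2 KO and control held 1 such cell each. Their shares, 0.0273% and 0.0298%, therefore differed only through the number of all cells. How many of all genes show this opposite pattern was not counted.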

How the results depend on the processing

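Calls over all genes depended on the tool and the libraries. In spleen 0 calls became 1 without a filter, 2 with DESeq2 and 1 with the replicate block, and 0 to 1 when leaving out 1 library. In colon lamina propria 0 became 1 with the replicate block and stayed at 0 in every fit that left out 1 library. Between tissues the 2910 calls became 1425 to 3082 on leaving out 1 library, with the lowest count without colon lamina propria KO replicate 1, and 4332 with the replicate block. The other leave-outs under 2910 by over 1.5 times were those without spleen control replicate 1 (1457), spleen control replicate 2 (1654), spleen KO replicate 2 (1805) and colon control replicate 1 (1890). For the gut genotype 0 became 4 without a filter, 10 with DESeq2, 0 with the replicate block and 0 to 6 on leaving out 1 library, with the 6 without colon control replicate 1. The block changed no other call for the 7 genes that carry a test. Reversed signs came from leaving out 1 library: Cpa3 in colon ran from -2.28 to 1.87 and Cd63 over the gut from -0.20 to 1.28. Cd63 between tissues ran from 1.84 to 3.0. The cells with 2 or more genes numbered 21 to 23 under 5 alternatives. Their share of UMIs was 95.2% with Cd63 left out and 69.1% after thinning. The causes were not tested. With 23 cells, 11 of them from 1 library, shares below 0.0735 to 0.306% could show no cell.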
